A study of Homo sapiens with 3 samples.

Results

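The SOX, PAX, GATA, TBX, LHX, DLX, FOX and SIX-family genes encode sequence-specific transcription factors of embryonic patterning and organ formation. They were taken from the deposited gene table as all protein-coding rows whose symbol is one of these family names followed by a number (for FOX, a subfamily letter and a number) and at most 1 further letter. This gave 111 of the 58735 genes listed, 111 of 19951 protein-coding ones: 44 FOX, 19 SOX, 13 TBX, 9 PAX, 8 LHX, 6 GATA, 6 DLX and 6 SIX-family genes. The RNA-seq libraries were made from HGC-27, a long-used line of human gastric cancer cells, with a hairpin against USP16 (2 libraries, shUSP16-1 and shUSP16-2) or a control hairpin (1 library, shControl, with the genotype label WT). All 3 libraries carry the same protocol text, which mentions dexamethasone, isobutylmethylxanthine and insulin; whether these cells received that treatment is unclear from the labels. What the numbers of the shUSP16 libraries stand for (hairpins, cultures or repeat preparations) is unlabelled, so p-values measure the spread between these samples alone, and that spread may be technical.

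Each family binds DNA through its own fold: the HMG box of SOX, the forkhead of FOX, the paired domain of PAX, the zinc fingers of GATA, the T-box of TBX and the homeodomain of LHX, DLX and SIX-family factors, joined in LHX by LIM domains. In embryos they act in tissue-restricted combinations, and in most adult cells those that are off are typical targets of Polycomb, which marks their CpG-rich promoters with ubiquitin on histone H2A. USP16 is a deubiquitinase that removes this ubiquitin. In the stomach, GATA4, GATA6, FOXA1, FOXA2 and SOX2 are known for their part in forming and keeping the epithelium.

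Recovered reads came to 29530581 in shUSP16-1 and 31187845 in shUSP16-2, against 30131136 in shControl. USP16 itself had 4.29 FPKM in shUSP16-1 and 5.98 FPKM in shUSP16-2, against 6.28 FPKM in shControl (FPKM, read fragments per kilobase of gene, scaled by the authors to the library total). The ratio to shControl was 0.683 for shUSP16-1, with a 95% exact binomial interval of 0.621 to 0.749, and 0.952 for shUSP16-2, with one of 0.875 to 1.04. The library labelled shUSP16-2 did not differ from shControl in USP16 beyond counting error on the deposited scale. With equal totals its ratio was 0.876 (0.805 to 0.953), beside 0.639 (0.582 to 0.702) in shUSP16-1, so the call depends on the scaling, and each direction given here rests on the labels. Intervals of this kind cover counting error only. Of 15 epithelial markers 2 reached a mean of 1 FPKM, with a summed level of 7.42 and 5.16 FPKM in the shUSP16 libraries against 6.83 FPKM in shControl; KRT19 and GRHL2 were listed at 0 in all 3 libraries, and KRT8, KRT18 and CDH1 were at most 0.121 FPKM. The epithelial markers just named were thus absent or nearly so in cells labelled as the gastric cancer line HGC-27. The identity of the cells, which rests on the label, was not tested. Of 14 mesenchymal markers 10 reached 1 FPKM, summing to 466 and 601 FPKM in the shUSP16 libraries against 474 FPKM in shControl, while 11 haematopoietic and 7 endothelial markers summed to at most 1.72 and 0.174 FPKM in any library. By voom on recovered reads with the authors' totals, 2 mesenchymal markers were called higher, COL1A1 (adjusted p = 0.0336) and COL1A2 (adjusted p = 0.0449). By that fit 204 of all 13852 genes were called higher. limma called 0 of these markers over all genes and 0 over protein-coding genes. The median difference of the 10 on log2(FPKM + 1) was -0.043 in shUSP16-1 and 0.34 in shUSP16-2. In bulk RNA, fewer cells expressing a gene and less of its RNA per cell cannot be told apart. Any part of these mesenchymal marker differences in the results that follow was not tested.

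The promoters of these genes show a feature that the choice by name did not use. RefSeq starts (GRCh38.p14) matched 77 of the 111 factors, and the 250 bases before each start were searched for the dinucleotide CG, which reads the same on both strands; a gene with several starts was given their mean. The 40 matched factors under 1 FPKM had a median of 17.0 CG per 250 bases, against 7.0 in the 6037 protein-coding genes under 1 FPKM. The 37 matched factors at 1 FPKM or more had a median of 21.0, as did the 8859 protein-coding genes at that level. Even the 15 matched factors listed at 0 in all 3 libraries had a median of 19.0. The following are the 250 bases upstream of the start for SOX12 (chr20:325302-325551, 42 CG), which was higher in both shUSP16 libraries; LHX8 (chr1:75128184-75128433, 12 CG at this one of its 2 starts, with a mean of 8.0 over both) and FOXO4 (chrX:71095601-71095850, 21 CG), which were lower in both; SOX2 (chr3:181711675-181711924, 20 CG), a low-level factor with more reads in both; and FOXI2 (chr10:127736935-127737184, 19 CG), listed at 0 with a CG count at the median of such factors. All 5 lie on the plus strand and are written 5′ to 3′ with each CG in capitals.
SOX12: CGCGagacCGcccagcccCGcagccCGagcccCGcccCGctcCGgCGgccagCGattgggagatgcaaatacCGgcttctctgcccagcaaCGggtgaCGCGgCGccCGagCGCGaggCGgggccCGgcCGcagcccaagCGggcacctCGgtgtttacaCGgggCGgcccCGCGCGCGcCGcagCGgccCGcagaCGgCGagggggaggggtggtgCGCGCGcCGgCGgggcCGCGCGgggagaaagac
LHX8: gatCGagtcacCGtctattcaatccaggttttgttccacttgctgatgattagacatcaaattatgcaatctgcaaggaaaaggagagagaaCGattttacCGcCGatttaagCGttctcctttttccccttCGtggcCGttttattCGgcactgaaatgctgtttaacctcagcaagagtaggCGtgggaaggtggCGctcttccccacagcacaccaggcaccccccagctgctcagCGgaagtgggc
FOXO4: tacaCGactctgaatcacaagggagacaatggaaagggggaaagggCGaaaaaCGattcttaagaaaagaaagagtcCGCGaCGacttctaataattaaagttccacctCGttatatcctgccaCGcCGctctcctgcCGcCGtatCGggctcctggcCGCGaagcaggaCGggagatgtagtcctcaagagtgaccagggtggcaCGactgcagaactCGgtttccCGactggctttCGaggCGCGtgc
SOX2: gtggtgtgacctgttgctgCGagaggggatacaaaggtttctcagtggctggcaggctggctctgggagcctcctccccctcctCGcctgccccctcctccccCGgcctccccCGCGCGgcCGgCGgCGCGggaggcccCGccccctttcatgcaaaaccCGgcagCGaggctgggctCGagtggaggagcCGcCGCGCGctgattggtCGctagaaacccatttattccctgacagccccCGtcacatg
FOXI2: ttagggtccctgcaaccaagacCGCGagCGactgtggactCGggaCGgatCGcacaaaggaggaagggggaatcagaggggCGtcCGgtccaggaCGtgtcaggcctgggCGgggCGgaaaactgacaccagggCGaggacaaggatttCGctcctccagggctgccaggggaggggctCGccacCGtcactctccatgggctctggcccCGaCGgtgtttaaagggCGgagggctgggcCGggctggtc
The count of CG is a description of these windows and says nothing of whether the DNA was methylated or bound in these cells.

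By the mean over the 3 libraries, 15 of 111 were at 10 FPKM or more, 39 between 1 and 10, 23 between 0.1 and 1 and 34 under 0.1, of which 18 were listed at 0 in every library. The share at 1 FPKM or more was 48.6%, against 55.5% of 19951 protein-coding genes. Every DLX gene reached 1 FPKM (6 of 6), as did 4 of 6 SIX-family, 5 of 9 PAX, 4 of 8 LHX, 3 of 6 GATA, 21 of 44 FOX, 8 of 19 SOX and 3 of 13 TBX genes. The number at 1 FPKM or more was 55 in each of the 3 libraries. Summed over the SOX family the level was 98.5 FPKM in shUSP16-1 and 93.3 FPKM in shUSP16-2, against 89.7 FPKM in shControl. The LHX sum was 76.3 and 77.1 FPKM in the shUSP16 libraries, against 83.3 FPKM in shControl, and the FOX sum was 206 and 200.1 FPKM in the shUSP16 libraries against 199.9 FPKM in shControl. Over all protein-coding genes the sum was also higher, at 291027 and 294719 FPKM in the shUSP16 libraries against 274171 FPKM in shControl.

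**Figure D1:**
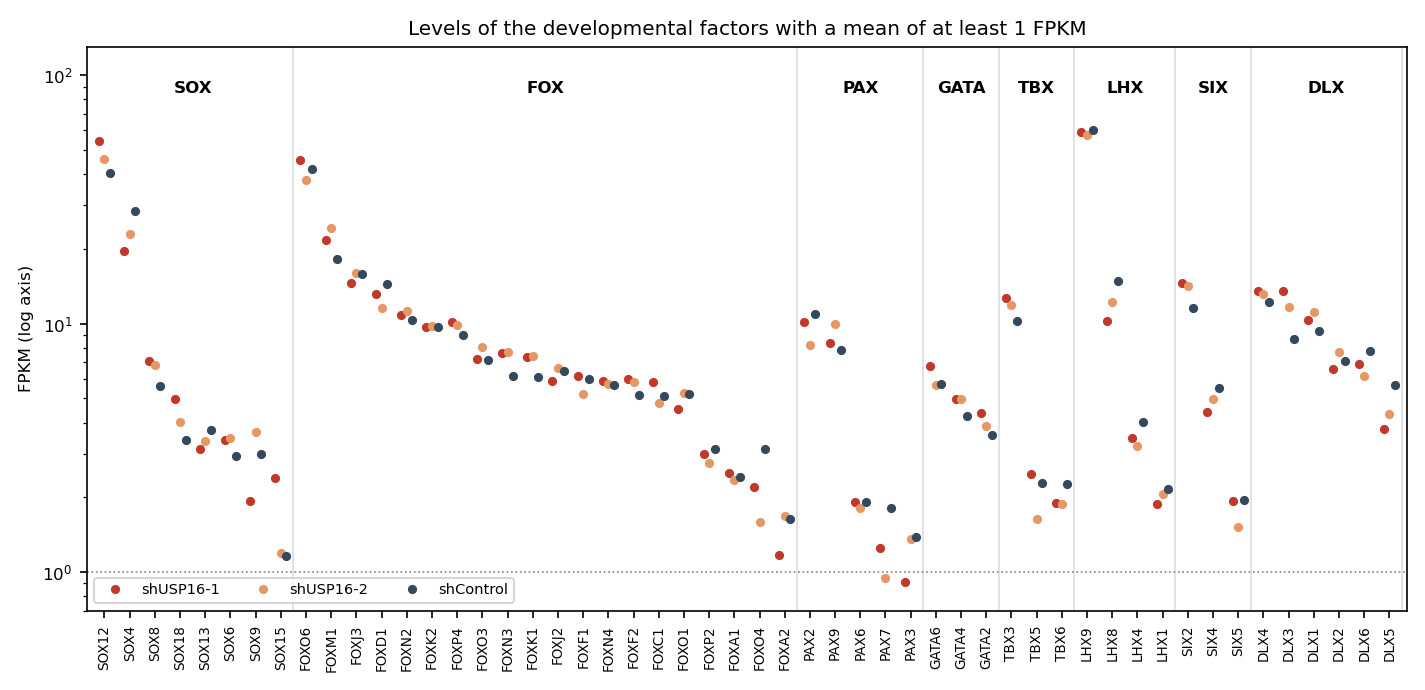
Level of 52 developmental factors that averaged 1 FPKM or more, in FPKM on a log axis, by family; points are shUSP16-1, shUSP16-2 and shControl from left to right, and the dotted line is 1 FPKM. The 3 libraries lie close together for most genes, LHX9 stands highest at 57.7 to 60.3 FPKM, and SOX12, SOX4, LHX8, DLX3 and FOXO4 show shControl apart from both shUSP16 libraries.

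The highest factor was LHX9, a LIM-homeodomain gene needed for gonad formation in mice (ENSG00000143355, chromosome 1, 197911902 to 197935478, plus strand, GRCh38). It had 58.9 FPKM in shUSP16-1 and 57.7 FPKM in shUSP16-2, against 60.3 FPKM in shControl, from 18390, 18691 and 20499 reads. FOXO6, the FOXO factor best known from brain, was the highest FOX gene, at 45.6 and 38.0 FPKM in the shUSP16 libraries, against 42.1 FPKM in shControl, which lay between them. FOXD1, a factor of kidney stroma, had 13.1 and 11.6 FPKM in the shUSP16 libraries against 14.5 FPKM in shControl. PAX2, of the developing kidney, was the highest PAX gene at 10.2 and 8.22 FPKM in the shUSP16 libraries against 11.0 FPKM in shControl. FOXJ3 had 14.6 and 16.1 FPKM in the shUSP16 libraries against 15.9 FPKM in shControl, and FOXN2 10.8 and 11.3 FPKM against 10.3 FPKM in shControl. By contrast the thyroid factor PAX8 and the endoderm factor SOX17 were listed at 0 in all 3 libraries.

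The shUSP16 libraries were set against shControl to see how targeting USP16 relates to the levels of these factors. Of the 54 factors averaging 1 FPKM or more, 21 were higher and 20 lower in both shUSP16 libraries on log2(FPKM + 1), 38.9% and 37.0%, beside 50.2% and 28.2% of 11069 protein-coding genes at that level. Their median difference, mean of shUSP16 minus shControl, was -0.023, against 0.067 for protein-coding genes and 0.042 for all 13852 genes tested. limma, fitted over all 13852 genes with Benjamini-Hochberg adjustment, called 0 of the 54 and 0.0% of all genes. At an unadjusted p under 0.05 it had 4 of the 54, DLX3 higher and SOX4, DLX5 and FOXO4 lower, 7.41% beside 14.5% of all genes; 8.71% of all genes were higher and 5.78% lower by that rule. limma over protein-coding genes alone called 0 of the 54 and 0.434% of 11069 genes. voom, a limma fit to the recovered reads, called 0 of the 54 with the authors' totals, beside 2.51% of all genes. Given sums of reads in their place, it had 2 of the 54 lower, SOX4 and LHX8, beside 3.02% of all genes, and limma over protein-coding genes scaled by median ratio called DLX3 higher, beside 3.01%. On log2(FPKM + 1), none of the 54 was 2-fold from shControl in both shUSP16 libraries, as 0.57% of all tested genes were, and 0 of the 54 reached 1.5-fold in both, as 2.97% of all tested genes did. An exact permutation test over 3 libraries cannot give a two-sided p under 0.333.

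**Figure D2:**
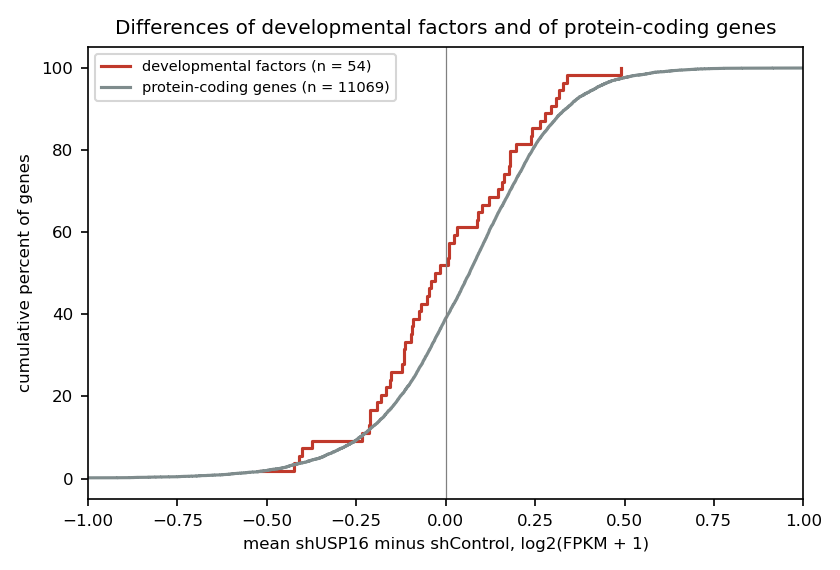
Cumulative percent of genes against the difference, mean of the shUSP16 libraries minus shControl on log2(FPKM + 1), for the 54 developmental factors and 11069 protein-coding genes tested, drawn from -1 to 1. The factors' curve lies left of the other in the middle, with medians of -0.023 and 0.067, and both curves span mostly -0.5 to 0.5.

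Counting error was then set beside the differences. For 26 of the 54 the exact binomial 95% interval of the ratio to shControl lay on the same side of 1 in both shUSP16 libraries, 13 higher (24.1%) and 13 lower (24.1%). The same held for 47.5% of protein-coding genes, 33.4% in the higher and 14.1% in the lower direction, so differences beyond counting error were common in the whole table. With FPKM recomputed to equal totals of reads, the factors split into 9 higher (16.7%) and 18 lower (33.3%), beside 20.1% and 25.0% of protein-coding genes. The factors that left the higher group were DLX1, DLX4, FOXP4 and GATA4.

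**Figure D3:**
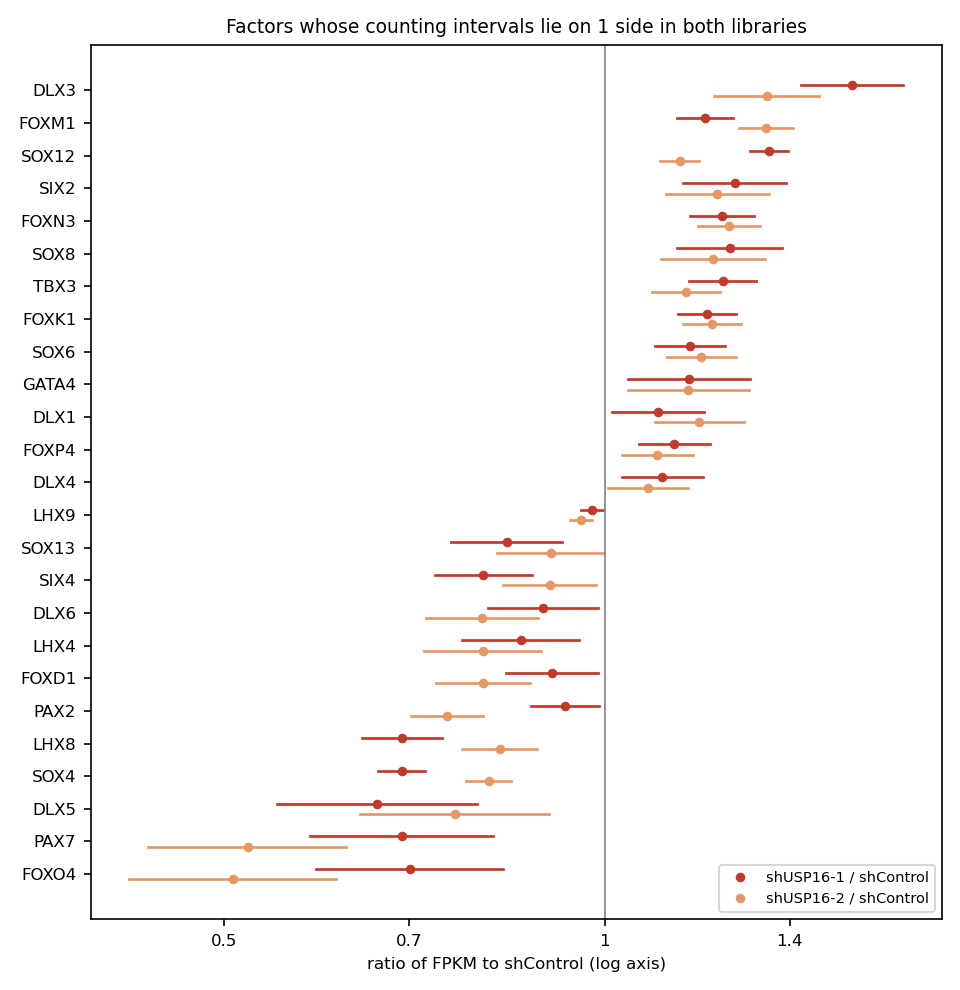
Ratio of FPKM to shControl, on a log axis, for 25 developmental factors whose exact binomial 95% intervals lay on the same side of 1 in both shUSP16 libraries; points are ratios, lines the intervals, which cover counting error only. Ratios run from 0.509 for FOXO4 in shUSP16-2 to 1.57 for DLX3 in shUSP16-1, and for SOX12, SOX4, LHX8, FOXM1 and PAX2 the intervals of the 2 shUSP16 libraries do not meet.

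Within the SOX family the SOXC factors SOX12 and SOX4, close relatives that act in neural and mesenchymal progenitors, differed in opposite directions. SOX12 (ENSG00000177732, chromosome 20, 325595 to 330224, plus strand) had 54.3 FPKM in shUSP16-1 and 46.1 FPKM in shUSP16-2, against 40.3 FPKM in shControl. Both shUSP16 libraries were higher, with ratios of 1.35 (95% interval 1.30 to 1.395) and 1.15 (1.11 to 1.19). SOX4 (ENSG00000124766, chromosome 6, 21592768 to 21598619, plus strand) had 19.7 FPKM in shUSP16-1 and 23.1 FPKM in shUSP16-2, against 28.5 FPKM in shControl. Here both shUSP16 libraries were lower, with ratios of 0.691 (0.662 to 0.721) and 0.809 (0.777 to 0.843). Neither passed limma. SOX12 differed by a log2 value of 0.31 (SE 0.14), with an adjusted p of 0.390 over all genes and 0.277 over protein-coding genes. SOX4 differed by -0.40 (SE 0.14), with an adjusted p of 0.324 over all genes and 0.175 over protein-coding genes in limma. The third SOXC gene, SOX11, was under the filter at 0.365 and 0.614 FPKM in the shUSP16 libraries and 0.528 FPKM in shControl, which lay between them. NRSN2-AS1, on the strand opposite SOX12 and overlapping it, had 370 and 345 reads in the shUSP16 libraries and 402 reads in shControl; whether counting used the strand was not given in the sources used here, so reads of the pair cannot be told apart.

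The other SOX genes were lower in level. SOX8, of the SOXE group of neural crest and gonad, had 7.04 and 6.83 FPKM in the shUSP16 libraries, against 5.61 FPKM in shControl, and both were higher beyond counting error. SOX9, its relative in cartilage and intestinal crypts, had 1.93 FPKM in shUSP16-1 and 3.65 FPKM in shUSP16-2, against 2.998 FPKM in shControl. This put the shUSP16 libraries on opposite sides of shControl, with ratios of 0.644 (0.544 to 0.761) and 1.22 (1.06 to 1.399), the widest gap on log2(FPKM + 1) between the 2 libraries labelled shUSP16 among all 111 factors. SOX15 was similarly uneven, at 2.39 and 1.19 FPKM in the shUSP16 libraries against 1.16 FPKM in shControl, on 110, 57 and 58 reads, and its body overlaps MPDU1 on the other strand. SOX2, a factor of stomach epithelium and pluripotent cells (ENSG00000181449, chromosome 3, 181711924 to 181714436, plus strand), was under the filter, at 0.959 and 0.706 FPKM with 72 and 55 reads in the shUSP16 libraries, against 0.257 FPKM from 21 reads in shControl. Its ratios were 3.74 (2.27 to 6.396) and 2.75 (1.64 to 4.79), so both shUSP16 libraries had more reads than shControl, at a level too low for the reported limma fit.

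Among the FOX genes the cell cycle factor FOXM1, which activates mitotic genes, was higher in both shUSP16 libraries. FOXM1 (ENSG00000111206, chromosome 12, 2857681 to 2877155, minus strand) had 21.8 and 24.3 FPKM in the shUSP16 libraries, against 18.1 FPKM in shControl, with ratios of 1.20 (1.14 to 1.26) and 1.34 (1.28 to 1.41). It did not pass limma (log2 difference 0.33, SE 0.13, adjusted p = 0.348 over all genes and 0.238 over protein-coding genes). RHNO1, which overlaps FOXM1 on the other strand, was also higher, at 18.8 and 22.4 FPKM against 17.0 FPKM in shControl, and without strand the reads of the overlap cannot be told apart. The forkhead repressors FOXN3 and FOXK1 were higher by like amounts: FOXN3 had 7.61 and 7.71 FPKM in the shUSP16 libraries against 6.15 FPKM in shControl, and FOXK1 7.35 and 7.42 FPKM against 6.10 FPKM in shControl. FOXK2, the close relative of FOXK1, had 9.69 and 9.80 FPKM in the shUSP16 libraries and 9.69 FPKM in shControl. It overlaps WDR45B on the other strand, where the same limit on reads holds.

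FOXO1, FOXO3 and FOXO4, which PI3K and AKT signalling keeps out of the nucleus, did not share a direction on the deposited scale. FOXO4 (ENSG00000184481, chromosome X, 71096197 to 71103535, plus strand) had 2.19 FPKM (226 reads) in shUSP16-1 and 1.59 FPKM (170 reads) in shUSP16-2, against 3.13 FPKM (351 reads) in shControl. Both shUSP16 libraries were lower, with ratios of 0.701 (0.591 to 0.831) and 0.509 (0.421 to 0.613), and its log2 difference of -0.52, the largest in size among the 54 factors, did not pass limma (SE 0.20, adjusted p = 0.341 over all genes and 0.147 over protein-coding genes). FOXO1 had 4.55 and 5.24 FPKM in the shUSP16 libraries and 5.20 FPKM in shControl, and FOXO3 7.21 and 8.08 FPKM in the shUSP16 libraries and 7.13 FPKM in shControl. With equal totals the mean differences of all these genes were negative, at -0.17 for FOXO1, -0.0077 for FOXO3 and -0.60 for FOXO4. FOXO1 and FOXO4 were then lower in both shUSP16 libraries, and FOXO3 was not. FOXO3 has a processed pseudogene, FOXO3B, with 147 and 170 reads in the shUSP16 libraries and 188 reads in shControl, so its own count may be split. The endoderm pioneer factors FOXA1 and FOXA2 were low. FOXA1 had 2.51 and 2.35 FPKM in the shUSP16 libraries against 2.41 FPKM in shControl. FOXA2 had 1.17 and 1.69 FPKM against 1.63 FPKM in shControl. On the deposited scale neither gene had both shUSP16 libraries on the same side of shControl. With equal totals both libraries were lower for both genes, with mean differences of -0.067 for FOXA1 and -0.19 for FOXA2. The median difference of protein-coding genes was then -0.026.

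All 4 LHX genes at 1 FPKM or more were lower in both shUSP16 libraries on the deposited scale. On that scale 28.2% of protein-coding genes and 37.0% of the 54 factors were lower in both. The largest difference among the 4 was that of LHX8, known in mice for cholinergic neurons and oocytes (ENSG00000162624, chromosome 1, 75128434 to 75161533, plus strand). LHX8 had 10.2 FPKM in shUSP16-1 and 12.2 FPKM in shUSP16-2, against 14.8 FPKM in shControl, with ratios of 0.691 (0.643 to 0.743) and 0.826 (0.772 to 0.884). It did not pass limma (log2 difference -0.37, SE 0.15, adjusted p = 0.349 over all genes and 0.208 over protein-coding genes). AC099786.2, on the opposite strand and overlapping LHX8, had 61 and 106 reads in the shUSP16 libraries and 126 reads in shControl. Without strand, the reads of that overlap cannot be told apart. LHX4, a pituitary factor, had 3.46 and 3.23 FPKM in the shUSP16 libraries against 4.03 FPKM in shControl. It overlaps ACBD6 on the other strand, which had 2114 and 2168 reads against 1924 reads in shControl, and the same limit on reads holds. LHX1, of the head organizer and kidney, had 1.88 and 2.07 FPKM in the shUSP16 libraries against 2.16 FPKM in shControl. For LHX9 the ratios of 0.977 (0.958 to 0.997) and 0.958 (0.939 to 0.977) lay just under 1.

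DLX genes lie in neighbouring pairs, so their values can be set side by side by position. DLX3, of epidermis, hair and teeth, and DLX4 lie on chromosome 17 within 26.3 kb (49968970 to 49995224). DLX3 (ENSG00000064195) had 13.6 FPKM in shUSP16-1 and 11.6 FPKM in shUSP16-2, against 8.66 FPKM in shControl, with ratios of 1.57 (1.43 to 1.72) and 1.34 (1.22 to 1.48). Its log2 difference of 0.49 (SE 0.14) did not pass limma, with an adjusted p of 0.292 over all genes and 0.121 over protein-coding genes. DLX4 had 13.5 and 13.2 FPKM in the shUSP16 libraries against 12.2 FPKM in shControl, and its ratios of 1.11 and 1.08 were beyond counting error on the deposited scale but not with equal totals. On chromosome 7, DLX6 and DLX5, which pattern the lower jaw, lie within 19.4 kb (97005548 to 97024950) and were both lower. DLX5 (ENSG00000105880) had 3.75 FPKM (196 reads) in shUSP16-1 and 4.32 FPKM (234 reads) in shUSP16-2, against 5.68 FPKM (323 reads) in shControl, with ratios of 0.661 (0.551 to 0.792) and 0.761 (0.640 to 0.903) and an adjusted p of 0.321 in limma over all genes and 0.165 over protein-coding genes. DLX6 had 6.91 and 6.18 FPKM in the shUSP16 libraries, against 7.73 FPKM in shControl. The antisense gene DLX6-AS1, which overlaps DLX6, had 382 and 432 reads in the shUSP16 libraries and 778 reads in shControl, ratios of 0.535 (0.472 to 0.605) and 0.583 (0.517 to 0.657). Without strand, the reads of DLX6 and DLX6-AS1 in their overlap cannot be told apart. DLX1 and DLX2, on chromosome 2 within 18.2 kb (172084740 to 172102900), had 10.3 and 11.1 FPKM and 6.59 and 7.69 FPKM in the shUSP16 libraries, against 9.35 and 7.07 FPKM in shControl. DLX1 was higher in both, while DLX2 lay on both sides of shControl.

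**Figure D4:**
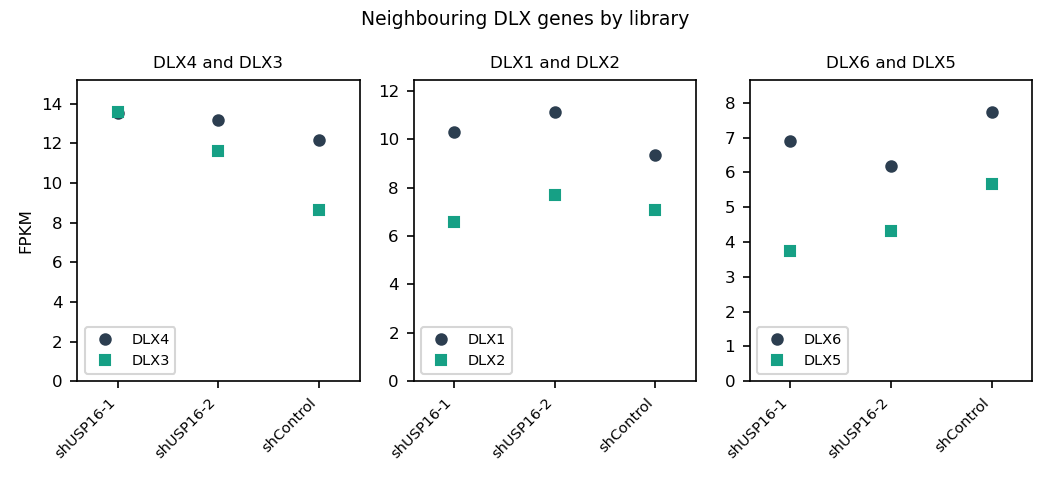
FPKM of 3 pairs of neighbouring DLX genes in shUSP16-1, shUSP16-2 and shControl, from left to right on each axis. DLX3 and DLX4 are higher in both shUSP16 libraries than in shControl, DLX5 and DLX6 are lower, and DLX2 lies on both sides of shControl.

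SIX-family genes, which act with EYA cofactors in muscle, kidney and sense organs, went in different directions. SIX2, of nephron progenitors (ENSG00000170577, chromosome 2, 45005161 to 45009430, minus strand), had 14.6 and 14.2 FPKM in the shUSP16 libraries against 11.6 FPKM in shControl, with ratios of 1.27 (1.15 to 1.39) and 1.23 (1.118 to 1.35). In limma it differed by a log2 value of 0.30 (SE 0.12), with an adjusted p of 0.353 over all genes and 0.260 over protein-coding genes. SIX4 had 4.40 and 4.96 FPKM in the shUSP16 libraries against 5.49 FPKM in shControl, lower beyond counting error in both, with ratios of 0.802 (0.734 to 0.876) and 0.904 (0.831 to 0.984).

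PAX7, a muscle stem cell factor (ENSG00000009709, chromosome 1, 18631006 to 18748866, plus strand), was lower at 1.25 FPKM (236 reads) in shUSP16-1 and 0.945 FPKM (185 reads) in shUSP16-2, against 1.81 FPKM (372 reads) in shControl. Its ratios were 0.691 (0.585 to 0.816) and 0.522 (0.435 to 0.625), and its adjusted p was 0.426 in limma over all genes and 0.226 over protein-coding genes. PAX6, of eye and pancreas, had 1.91 and 1.81 FPKM in the shUSP16 libraries and 1.92 FPKM in shControl, a difference within counting error. PAX9, of teeth and pharyngeal pouches, had 8.38 and 9.93 FPKM in the shUSP16 libraries against 7.83 FPKM in shControl, and only shUSP16-2 was beyond counting error.

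The GATA factors of endoderm were expressed at a few FPKM. GATA6, the highest, had 6.79 and 5.64 FPKM in the shUSP16 libraries against 5.70 FPKM in shControl, so only shUSP16-1 was higher. GATA6-AS1, which overlaps it on the other strand, had 118 and 69 reads against 125 reads in shControl. Without strand, the reads of that overlap cannot be told apart. GATA4 had 4.96 and 4.96 FPKM in the shUSP16 libraries against 4.26 FPKM in shControl, with ratios of 1.165 and 1.164 (intervals 1.04 to 1.30 in both), not beyond counting error with equal totals. Of the T-box genes, TBX3, a repressor active in limb and mammary gland, had 12.7 and 11.9 FPKM in the shUSP16 libraries against 10.3 FPKM in shControl, both higher beyond counting error. TBX5, of heart and forelimb, had 2.49 and 1.63 FPKM in the shUSP16 libraries and 2.28 FPKM in shControl, which lay between them. TBX6, of paraxial mesoderm, had 1.90 and 1.87 FPKM in the shUSP16 libraries against 2.27 FPKM in shControl, lower in both, within counting error on the deposited scale and beyond it with equal totals.

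Of the 39 factors under 1 FPKM with any read, 6 had ratios beyond counting error on the same side in both shUSP16 libraries (15.4%), as did 15.0% of 5492 protein-coding genes at such levels. Besides SOX2, TBX10 had 16 and 11 reads in the shUSP16 libraries against 3 reads in shControl. Its ratios on the deposited scale were 5.81 (1.66 to 31.1) and 3.85 (1.02 to 21.5), with a lower limit close to 1 in shUSP16-2. FOXJ1, the master factor of motile cilia, had 9 and 8 reads in the shUSP16 libraries against 33 reads in shControl, with ratios of 0.297 (0.125 to 0.635) and 0.255 (0.102 to 0.562). GATA1, of red cells and platelets, had 0 reads in both shUSP16 libraries against 11 reads in shControl, with upper 95% limits of the ratio of 0.434 for shUSP16-1 and 0.418 for shUSP16-2. FOXB2 had 0 reads in both against 9 reads in shControl, and FOXC2 0 reads in both against 8 reads in shControl. All 6 were under the filter of the reported limma fits, and with no filter limma called 0 of 32001 genes.

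Genes that work with these factors were read from lists of partners and targets. Of 25 cofactors of LIM, GATA, PAX and SIX-family proteins 24 were tested; 13 were higher and 8 lower in both shUSP16 libraries with a median difference of 0.091, and limma called 0 over all genes and 0 over protein-coding genes. The median of these cofactors was 0.096 in shUSP16-1 and 0.040 in shUSP16-2. SSBP3, a partner of LIM-domain complexes, had 20.9 and 22.6 FPKM in the shUSP16 libraries against 16.5 FPKM in shControl, and SSBP4 46.2 and 42.5 FPKM against 34.2 FPKM in shControl. LMO3, a LIM-only protein gene, had 5.85 and 6.13 FPKM in the shUSP16 libraries against 7.98 FPKM in shControl. Of 25 FOXO regulators 22 were tested; 14 were higher and 3 lower in both, with a median of 0.21 and 0 limma calls over all genes or protein-coding genes. YWHAQ, a 14-3-3 protein gene, had 126 and 141 FPKM in the shUSP16 libraries against 98.5 FPKM in shControl, SKP2, a ubiquitin ligase subunit, 33.2 and 38.1 FPKM against 26.6 FPKM in shControl, and EP300, an acetyltransferase, 11.9 and 10.8 FPKM against 8.51 FPKM in shControl.

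FOXO target genes were lower in both shUSP16 libraries for 12 of 23 tested genes and higher in both for 5, with a median of -0.13, and limma called 0 over all genes or protein-coding genes. TXNIP, an inhibitor of thioredoxin and glucose uptake, had 12.7 and 21.0 FPKM in the shUSP16 libraries against 29.9 FPKM in shControl, and was called lower by voom on recovered reads (adjusted p = 0.0211 with the authors' totals, 0.00128 with sums of reads) but not by limma over protein-coding genes (adjusted p = 0.102). KLF6, a zinc finger factor gene, had 4.14 and 4.82 FPKM in the shUSP16 libraries against 6.75 FPKM in shControl, and GADD45A, a DNA damage gene, 15.1 and 17.0 FPKM against 22.8 FPKM in shControl. Both passed voom with sums of reads (adjusted p = 0.0142 and 0.0231) and neither passed it with the authors' totals. Mitotic targets of FOXM1 were higher in both for 17 of 25 tested genes and lower in both for 2, with a median of 0.11 and 0 limma calls over all genes or protein-coding genes. The median of these targets was 0.035 in shUSP16-1 and 0.19 in shUSP16-2, beside 0.063 and 0.070 for protein-coding genes. CENPB, a centromere protein gene, had 39.0 and 38.4 FPKM in the shUSP16 libraries against 31.0 FPKM in shControl, BIRC5, encoding survivin, 38.6 and 43.1 FPKM against 31.6 FPKM in shControl, and CCNA2, encoding cyclin A2, 30.4 and 31.4 FPKM against 25.7 FPKM in shControl. The medians of these lists stand beside 0.067 for protein-coding genes, and shares of 50.2% higher and 28.2% lower in both.

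Of 26 gastric and endoderm lineage genes 4 were tested, 2 higher and 2 lower in both, with 0 limma calls over all genes or protein-coding genes. CDX2, an intestinal homeobox gene, had 2.06 and 2.17 FPKM in the shUSP16 libraries against 1.64 FPKM in shControl, ONECUT2 2.76 and 3.19 FPKM against 3.49 FPKM in shControl, and KLF5 8.87 and 9.91 FPKM against 8.34 FPKM in shControl. Of 71 other homeobox genes 38 were tested, 9 higher and 15 lower in both with a median of -0.034. Among these MSX2, a BMP-responsive factor of skull and limb, rose to 38.7 and 37.2 FPKM in the shUSP16 libraries, against 19.1 FPKM in shControl, in limma over protein-coding genes (log2 difference 0.96, SE 0.13, adjusted p = 0.0137). MSX2 was the only gene of the 6 lists that this fit called, and limma over all genes called 0 (adjusted p = 0.192 for MSX2). MEIS3, a partner of HOX proteins, had 1.94 and 1.53 FPKM in the shUSP16 libraries against 2.82 FPKM in shControl, and PITX1, of hindlimb and pituitary, 26.0 and 25.8 FPKM against 20.9 FPKM in shControl.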

How the data were processed

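RNA-seq values came from 2 libraries labelled shUSP16 and 1 labelled shControl, grouped by their titles. Per the file headers, the authors deposited FPKM for 58735 genes with gene length and coordinates; aligner, counter and strand setting were not given in the sources used here. In the submitters' processing notes the builds are GRCm38 and mm10, whereas every one of the 58735 gene IDs and coordinates equals that of human GENCODE release 29 on GRCh38, used here, and the deposited lengths of all 111 factors equal the union of its annotated exons. FPKM times length was a whole multiple of 1 step per library for 100.0% of values above 0 (tolerance 0.01 reads), which gave reads. The totals implied by the authors' scaling were 1.01, 0.994 and 1.08 times the sums of reads in shUSP16-1, shUSP16-2 and shControl, so equal totals were also tried. Chi-square per degree of freedom between the shUSP16 libraries was 13.1 over 18422 genes, so they count as 2 libraries.

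limma 3.58.1 (R 4.3.3) was fitted to log2(FPKM + 1) for genes averaging 1 FPKM or more, with a variance trend, Benjamini-Hochberg adjustment and a threshold of 0.05, over all genes and over protein-coding genes (the protein-coding values added after seeing the data for single genes and partner lists); fold changes on this scale understate those of low genes. The spread comes from the shUSP16 libraries alone, with 1 residual degree of freedom, and the lone control is assumed to vary like them. Ratio intervals are exact (Clopper-Pearson) 95% intervals of reads. voom on recovered reads was an alternative and called 348 of 13852 genes. Genes named are the highest of each family, those at 10 FPKM or more, up to 6 per direction with the largest difference in the weaker library, the 3 with the largest gap between shUSP16 libraries, set lineage genes, and up to 3 per partner list plus any called; others (SOX17, SOX11, SIX4, GATA2, FOXP4, DLX2, DLX6, LHX4, PAX9, FOXK2, RHNO1 and the factors under 1 FPKM) were chosen after their values were seen. Values of some items are not reported here. The factors and lists were chosen with earlier results of these data known. FPKM is per length of all annotated exons, so genes with long rare exons read low. Other tools were pandas 2.3.3, numpy 2.4.6 and scipy 1.17.1 under Python 3.11.15, with figures from matplotlib 3.10.9.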

Additional observations from a re-analysis of the deposited data

How the results depend on the processing

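No call over the 54 tested factors held across settings. limma called 0 over all genes with a pseudocount of 0.1, no filter, a mean of at least 5 FPKM, equal totals, median ratio scaling, no variance trend or an adjusted p under 0.1, and voom with the authors' totals called 0. voom with sums of reads called 2 lower, SOX4 (adjusted p = 0.0237; 0.0235 to 0.450 over 18 fits) and LHX8 (adjusted p = 0.0486; 0.0468 to 0.490 over 18 fits), with 2 over protein-coding genes too. limma over protein-coding genes scaled by median ratio called 1, DLX3 higher (adjusted p = 0.0408; 0.0408 to 0.404 over 18 fits). The cause was not tested. Over all genes the count was 0 in the reported fit, 13 with a mean of at least 5 FPKM and 348 or 557 with voom; over protein-coding genes it was 48, and 23 with at least 5 FPKM, 0 with no filter, 85 with equal totals, 545 with median ratio scaling and 365 or 481 with voom. In voom, sums of reads moved the median difference of all genes to -0.059, against 0.048 with the authors' totals. That scaling reversed FOXN2 (-0.0070), FOXA1 (-0.095) and FOXO3 (-0.0081), and equal totals reversed the same genes in limma (-0.0066, -0.067 and -0.0077); all were close to 0. Among partner lists, voom called 2 genes with the authors' totals and 8 with sums of reads, and limma over protein-coding genes, added after seeing the data, called 1. Without either shUSP16 library, 35 to 40 of the 54 factors had an interval beyond 1 in the remaining one, against 26 in both. The share of protein-coding genes by this single-library rule was not counted, so whether these counts are unusual was not tested. That share is at least the 47.5% of protein-coding genes found in both libraries, where the factors had 48.1%. Without either library, 0 of the 54 were 2-fold on log2(FPKM + 1), though the plain FPKM ratio of SOX15 was 2.07 in shUSP16-1. The median difference of the factors was then 0.0066 to 0.0087, against -0.023 with both. No paired analysis was possible because there was a single shControl library. With 2 shUSP16 libraries and 1 control, small differences cannot be resolved, and under 1 FPKM read numbers limit precision.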

Other observations

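Noncoding genes named after these factors (antisense, overlapping, divergent or intronic transcripts) were also counted: 27 are in the table, 21 of them overlapping their factor, and 8 had a mean of at least 1 FPKM. Of those 8, 5 were lower and 1 higher in both shUSP16 libraries, where 49.2% of the 2783 tested genes that are not protein-coding were lower and 23.9% higher in both. limma over all genes called none of the 8. TBX2-AS1, overlapping the T-box gene TBX2, had 53 and 40 reads in the shUSP16 libraries against 86 reads in shControl, with ratios of 0.671 (exact binomial 95% interval 0.468 to 0.956) and 0.488 (0.327 to 0.719), while TBX2 itself had 49 and 35 reads against 49 reads in shControl. FOXD2-AS1, which does not overlap FOXD2, had 157 and 157 reads in the shUSP16 libraries against 225 reads in shControl, with ratios of 0.760 (0.616 to 0.936) and 0.733 (0.594 to 0.902), and FOXD2 87 and 71 reads against 120 reads in shControl. GATA2-AS1 had 203 and 230 reads in the shUSP16 libraries against 284 reads in shControl, while GATA2 on the other strand had 580 and 534 reads against 519 reads in shControl. FOXN3-AS1, inside FOXN3, had 5.19 and 5.42 FPKM in the shUSP16 libraries against 4.25 FPKM in shControl. SOX2-OT, SOX9-AS1 and PAX8-AS1 were at or near 0 in all 3 libraries.

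FOXD4 has near-identical copies. FOXD4 had 63 and 49 reads in the shUSP16 libraries and 66 reads in shControl, and its copy FOXD4L4 19 and 12 reads against 16 reads in shControl, so the split between copies is uncertain.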
